A study of Homo sapiens with 4 samples.

Results

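The genes described here are 35 genes of glycolysis and of the response to low oxygen, out of 33538 genes in the count matrix. They were taken by gene symbol from a fixed list: 18 genes for glycolytic enzymes and their regulators, 16 genes known to be induced by hypoxia-inducible factor (HIF) outside glycolysis, and HIF1A itself. The rule sets no threshold on a measured value, but the list was drawn up with earlier results of these data known. A gene counted as measured with a mean of at least 1 CPM (counts scaled to the same library total) over the 4 libraries, which 12136 genes and 33 of the 35 members reached. ALDOC and CA9 stayed under that level. The cells were BT474, an established human breast cancer line that carries the estrogen receptor and an amplified HER2 gene. All groups were BT474 cells kept for 4 h in one of 4 treatments, and each group was 1 single-cell RNA-seq library. The groups were DMSO, the vehicle; fulvestrant at 100 nM, an antagonist that leads to loss of the estrogen receptor; neratinib at 200 nM, a covalent, irreversible inhibitor of HER2 and of the related kinases EGFR and HER4; and fulvestrant plus neratinib at the same doses, called both drugs or the combination below. The study addressed how blockade of the estrogen receptor and of HER2 acts on such cells. With 1 library per group no difference below has a replicate check, and no p-value can be given.

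Glycolysis splits glucose to pyruvate, and lactate dehydrogenase turns pyruvate to lactate. Hexokinases trap glucose in the cell, phosphofructokinase commits it to the pathway, and the PFKFB enzymes make or remove fructose 2,6-bisphosphate, the main activator of phosphofructokinase. HIF is a pair of transcription factor subunits whose alpha subunit is marked for destruction by the prolyl hydroxylases of the EGLN family while oxygen is present. Stabilised HIF binds short elements with the letters ACGTG or GCGTG and raises glucose uptake, most glycolytic enzymes, vessel growth factors and its own hydroxylases. HER2 signalling through PI3K, mTOR and MYC is also known to raise HIF1A translation and glycolytic genes, so the 2 classes share several inputs.

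The cells were barcodes with at least 5000 unique molecular identifiers (UMIs, each standing for 1 captured transcript) and at least 500 genes. They numbered 4301 with DMSO, 3485 with fulvestrant, 3507 with neratinib and 3876 with the combination, and held between 82967775 UMIs (neratinib) and 102504452 UMIs (DMSO) per library. Median depth was alike, between 22007 and 23010 UMIs per cell. The share of mitochondrial UMIs was not: its median per cell was 16.2% (DMSO) and 16.7% (fulvestrant) without neratinib, and 21.1% in both libraries with it. All 9 luminal epithelial markers checked were measured, with a summed level of 5203 to 8108 CPM that was lower in the neratinib libraries. The single markers did not share that direction. KRT18 was at 1952 CPM with DMSO and 1254 with neratinib, ERBB2 at 974 and 953, CDH1 at 156 and 182, and GRB7 at 218 and 595. Immune markers summed to at most 1.14 CPM, with 0 of 5 measured and CD3E at 0 in every library. Of 5 fibroblast markers COL1A1 alone was measured, and COL1A2 was at 0 in every library, while the list summed to 10.2 to 12.4 CPM. Of 4 endothelial markers VWF alone was measured, with 1.76 to 2.49 CPM for the list. The libraries shared 23 cell barcodes, 0.152% of all cells.

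Promoter stretches of some members are shown first because their letters include the short element known for HIF. RefSeq promoter windows on GRCh38.p14, reaching from 250 bases before to 50 bases after each start site, were at hand for 32 of the 35 members, as 56 windows of 300 bases. Both strands were searched for ACGTG, which stands reversed as CACGT, and for GCGTG, which stands reversed as CACGC, so that neighbouring matches can overlap. ACGTG was in 24 of 56 member windows (42.9%), against 21.4% of all 35116 windows and 25.2% of the windows with at least 60% G and C. GCGTG was in 41.1% of member windows, against 36.5% of all windows and 54.5% of those rich in G and C. Either motif was in 67.9%, against 48.4% and 64.9%. Thus the share of member windows was above that of all windows for ACGTG, for GCGTG and for either motif. Member windows were not limited to those with at least 60% G and C, and 1 of PDK1 had 36.3%. Their shares and those of the G- and C-rich windows are therefore of unlike sets, and no direction is read from that comparison. The following stretches of 45 bases from 9 members have ACGTG, on one strand or the other, in capitals. They were picked because no annotated exon overlaps them, and they include genes called lower with neratinib by the rule given below (PFKFB3, HK2, PFKP, MIR210HG) and genes not called (GAPDH, PGK1, ALDOA, BNIP3, FAM162A).
PFKFB3, chr10:6202805-6202849, plus strand: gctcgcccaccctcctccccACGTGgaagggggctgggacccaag
HK2, chr2:74834957-74835001, plus strand: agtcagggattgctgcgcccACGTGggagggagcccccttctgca
PFKP, chr10:3069030-3069074, plus strand: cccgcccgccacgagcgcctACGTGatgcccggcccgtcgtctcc
MIR210HG, chr11:568603-568647, minus strand: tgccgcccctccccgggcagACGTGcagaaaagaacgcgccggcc
GAPDH, chr12:6535164-6535208, plus strand: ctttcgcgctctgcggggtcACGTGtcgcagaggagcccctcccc
PGK1, chrX:78104026-78104070, plus strand: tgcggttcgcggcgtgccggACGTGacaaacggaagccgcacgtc
ALDOA, chr16:30065542-30065586, plus strand: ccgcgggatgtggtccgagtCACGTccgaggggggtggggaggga
BNIP3, chr10:131982032-131982076, minus strand: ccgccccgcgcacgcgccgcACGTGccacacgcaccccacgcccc
FAM162A, chr3:122384078-122384122, plus strand: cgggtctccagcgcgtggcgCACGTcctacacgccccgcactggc

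A match of letters is a description of the window and not a HIF binding site. Of the 17 members lower in both neratinib comparisons described below, 16 had a window and 9 of these held ACGTG. Of the 16 other measured members, 14 had a window and 9 of these held it. The letters were thus found in windows of lower members and of others alike. EGLN3, among the members with the lowest ratios, had neither motif in its window.

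Each drug was read in a pair of comparisons that share no library: for fulvestrant, fulvestrant against DMSO and both drugs against neratinib; for neratinib, neratinib against DMSO and both drugs against fulvestrant. A gene was called higher or lower when the log2 ratio of its CPM was at least 0.32 from 0, the call limit, with an exact 95% Poisson counting interval off 0. Ratios are log2 ratios of CPM, with that interval in square brackets, and the interval covers counting error only. Members described one by one were GAPDH, LDHA, SLC2A1, VEGFA and HIF1A, and all those with at least 1.5-fold in both comparisons of a drug. PFKP, PDK1, NDRG1, KDM3A, ANKRD37 and every other member given with its own values were singled out after their values had been seen.

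With fulvestrant alone all 33 measured members stayed inside the call limit. Against DMSO 0 members were higher and 0 lower, where 1.23% of all measured genes were higher and 1.8% lower. The ratios ran from -0.21 to 0.17, with a median of -0.04 against 0.00 for all genes. SLC2A1, which encodes the glucose transporter GLUT1, had the lowest of these, at 17.8 CPM with DMSO, 15.4 with fulvestrant, 13.3 with neratinib and 10.9 with the combination. Its level with fulvestrant was thus below that without it on either background, at -0.21 [-0.31, -0.10] and -0.29 [-0.41, -0.16].

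On top of neratinib, fulvestrant went with 0 members higher and 3 lower (ADM, PFKFB3 and EGLN3), beside 1.57% and 2% of all genes. The clearest of the 3 was EGLN3, a HIF-induced prolyl hydroxylase that limits HIF. Its level was 31.5 CPM (DMSO), 27.4 (fulvestrant), 15.5 (neratinib) and 10.7 (both drugs), so the 4 libraries stood in that order. The ratio for fulvestrant was -0.20 [-0.27, -0.12] without neratinib and -0.54 [-0.66, -0.41] with it. The difference between these ratios was -0.34 [-0.48, -0.20] in counting error, and EGLN3 was the single member whose difference reached the call limit with an interval off 0, where 1.56% of all genes lay below 0 and 1.83% above by the same rule. The difference of PFKFB3 was larger but its interval held 0, at -0.42 [-0.87, 0.04]. ADM and PFKFB3 rested on few counts, 144 and 95 UMIs with both drugs, and neither kept its call in cells with at most 20% mitochondrial UMIs.

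Neratinib had many more differences, in these genes as in the whole transcriptome. Against DMSO, 17 of the 33 members were lower and 3 higher, beside 33.3% and 13.6% of all measured genes. With both drugs against fulvestrant, 18 were lower and 2 higher, beside 32.4% and 13.8%. The 17 lower members were lower in both comparisons, and PGAM1 was added in the second. The median ratio of the members was -0.36 and -0.35, against -0.16 and -0.15 for all genes. Median-of-ratios scaling brought the median of all genes to -0.06 and -0.07 and its split against DMSO to 25.1% lower and 17.8% higher. With it 14 members were lower and 3 higher against DMSO. At 1.5-fold or more, 9 and 8 members were lower, beside 15.1% and 14.6% of all genes, and 1 and 0 higher, beside 7.03% and 7.26%. Both drugs against DMSO, a comparison that shares libraries with these, had 19 members lower and 3 higher (33.3% and 14.9% of all genes), and at 1.5-fold 11 and 0 (15.7% and 7.94%).

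**Figure D1:**
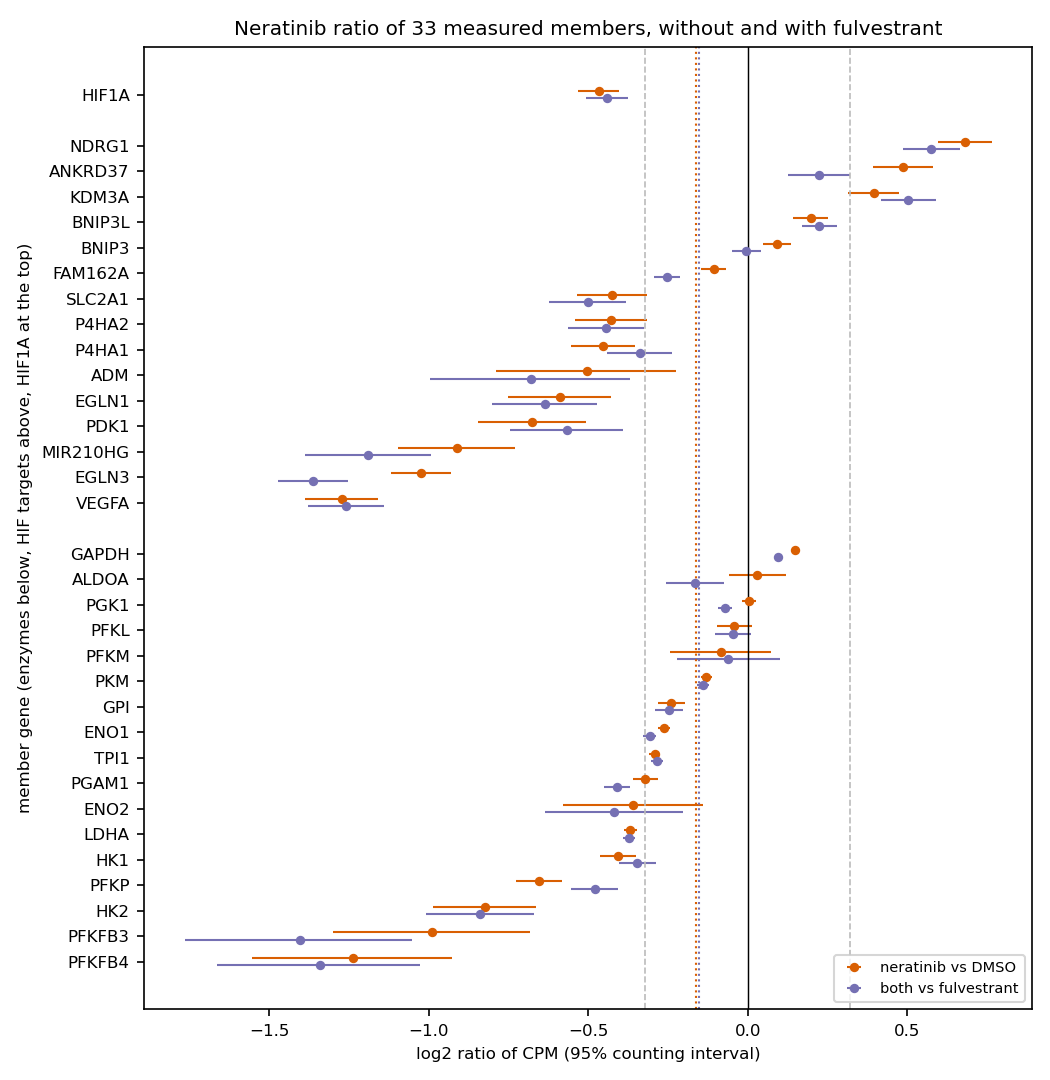
Log2 ratio of CPM for the 33 measured members with neratinib against DMSO (orange) and with both drugs against fulvestrant (purple), with 95% counting intervals. Dashed lines mark the call limit and dotted lines the median of all measured genes. The members run from VEGFA at -1.27 to NDRG1 at 0.68 against DMSO, and from PFKFB3 at -1.40 to NDRG1 at 0.57 on top of fulvestrant.

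The entry steps of glycolysis held the lowest ratios among the enzymes. HK2, the inducible hexokinase, was at 9.99 CPM with DMSO, 9.17 with fulvestrant, 5.64 with neratinib and 5.13 with the combination. PFKFB3, which makes the activator of phosphofructokinase, was at 2.97, 2.76, 1.49 and 1.04 CPM in the same order. PFKFB4, its isozyme, was at 3.27, 3.31, 1.39 and 1.31 CPM. All 3 genes were called lower in both neratinib comparisons, where 33.3% and 32.4% of all measured genes were lower. The neratinib ratios were -0.82 [-0.99, -0.67] and -0.84 [-1.01, -0.67] for HK2, without and with fulvestrant. For PFKFB3 they were -0.99 [-1.30, -0.68] and -1.40 [-1.77, -1.05]. For PFKFB4 they were -1.24 [-1.56, -0.93] and -1.34 [-1.66, -1.03], which is 2.36-fold and 2.54-fold lower.

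Isozymes of the same step did not share these values. HK1, the constitutive hexokinase, was at 63.8, 61.0, 48.1 and 48.0 CPM, or -0.41 and -0.35 with neratinib. Among the phosphofructokinases PFKP, the platelet type, was at 46.1, 41.5, 29.3 and 29.7 CPM and -0.65 [-0.73, -0.58] and -0.48 [-0.55, -0.41]. The liver type PFKL was at 59.6, 60.6, 57.9 and 58.7 CPM, a ratio of -0.04 [-0.10, 0.01] and -0.05 [-0.10, 0.01], so any difference in it was small against that in PFKP. The muscle type PFKM lay between 6.97 and 7.39 CPM in all libraries.

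**Figure D2:**
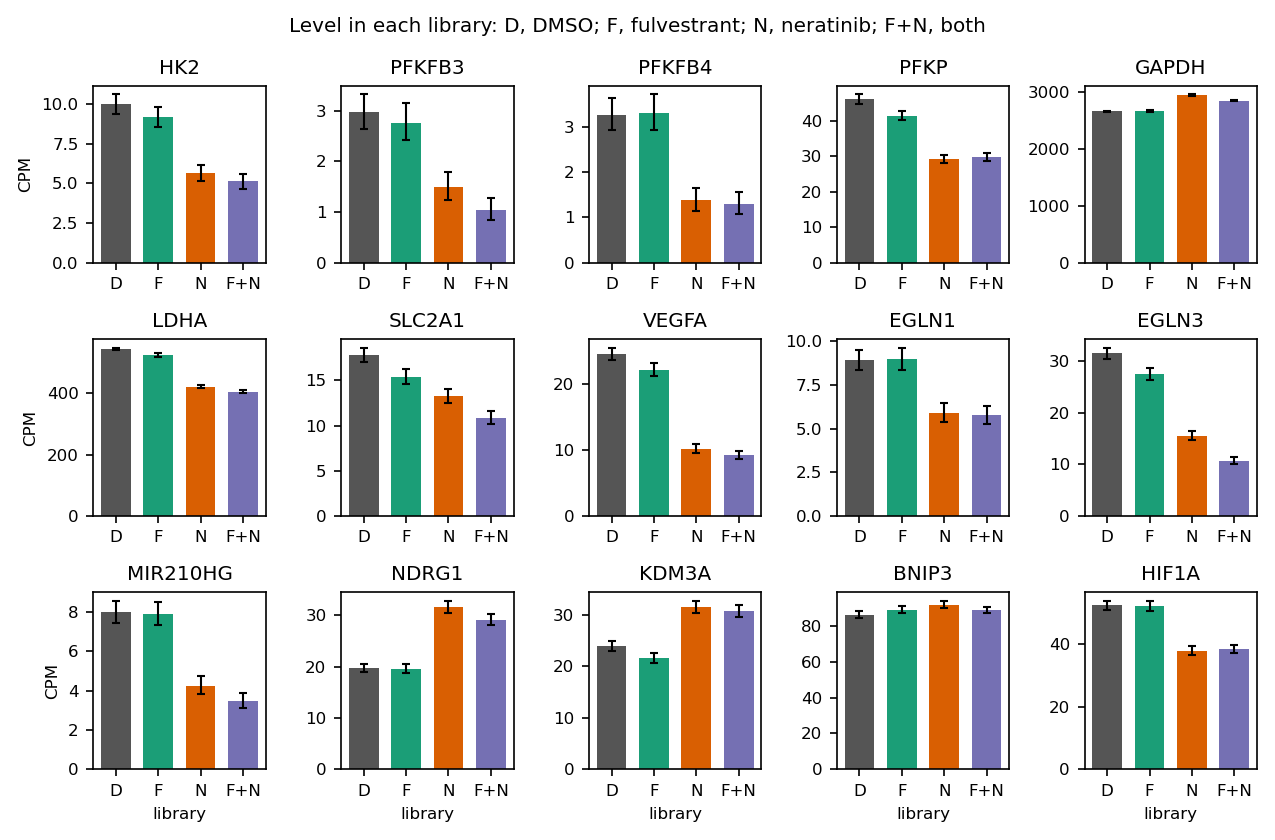
CPM of 15 members in the DMSO (D), fulvestrant (F), neratinib (N) and combined (F+N) libraries, with 95% Poisson counting intervals and each axis starting at 0. Bars of HK2, PFKFB3, PFKFB4, VEGFA, EGLN3 and MIR210HG are low in both neratinib libraries, those of NDRG1 and KDM3A are high there, and GAPDH and BNIP3 stay inside the call limit.

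The later steps of the pathway were nearer to the transcriptome's median. GAPDH, which oxidises glyceraldehyde 3-phosphate, was at 2660.0 CPM with DMSO, 2665 with fulvestrant, 2945 with neratinib and 2845 with the combination. It was the enzyme with the highest neratinib ratio, 0.15 [0.14, 0.15] and 0.09 [0.09, 0.10], above 0 under every scaling and cell choice tried and short of the call limit in each. LDHA, which makes lactate, was at 545, 525, 422 and 406 CPM, or -0.37 [-0.39, -0.35] in both comparisons. It was 1.29-fold lower in each, and with median-of-ratios scaling -0.27 and -0.29, inside the call limit.

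The other enzymes of the lower steps ran from no difference to a ratio like that of LDHA. PGK1, the first step that yields ATP, was at 367, 360, 368 and 343 CPM and 0.00 [-0.02, 0.03] and -0.07 [-0.09, -0.05]. TPI1 (-0.29 and -0.28), ENO1 (-0.26 and -0.31), GPI (-0.24 and -0.25) and PKM (-0.13 and -0.14) were below 0 and inside the call limit. PGAM1 was just inside it at -0.32 and then lower at -0.41, and ENO2, the neuronal enolase, at -0.36 and -0.42. ALDOA was at 21.4, 23.3, 21.9 and 20.8 CPM. Thus 7 of 17 measured enzymes were lower against DMSO and 8 on top of fulvestrant, with 0 higher in either comparison. That is 41.2% and 47.1% lower, where all genes had 33.3% and 32.4% lower and 13.6% and 13.8% higher. Their median was -0.29 and -0.31. Several enzymes have processed pseudogenes or near-identical copies (GAPDH, PGK1, PGAM1, TPI1, LDHA and ENO1 among them), so reads that fit more than one place may be missing from their counts.

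The HIF targets outside glycolysis spread over a wider range, from -1.27 to 0.68 against DMSO, with a median of -0.43 and, on top of fulvestrant, -0.44. Of 15 measured targets 9 were lower in both comparisons, beside 33.3% and 32.4% of all genes. Those higher were 3 and 2, near the 13.6% and 13.8% of all genes. VEGFA, the vessel growth factor, was at 24.5 CPM with DMSO, 22.1 with fulvestrant, 10.1 with neratinib and 9.24 with the combination. It was 2.42-fold lower with neratinib alone, at -1.27 [-1.39, -1.16], and 2.40-fold lower on top of fulvestrant, at -1.26 [-1.38, -1.14]. The neratinib ratios of EGLN3 were -1.02 [-1.12, -0.93] and -1.36 [-1.47, -1.25].

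MIR210HG, the noncoding host gene of the hypoxia microRNA miR-210, was at 8.01, 7.91, 4.25 and 3.47 CPM in the order DMSO, fulvestrant, neratinib, both drugs. EGLN1, the main oxygen-sensing prolyl hydroxylase, was at 8.91, 8.98, 5.92 and 5.77 CPM. Both genes were called lower in both neratinib comparisons, where 33.3% and 32.4% of all measured genes were lower. Their ratios were -0.91 [-1.10, -0.73] and -1.19 [-1.39, -0.99] for MIR210HG, and -0.59 [-0.75, -0.43] and -0.64 [-0.80, -0.47] for EGLN1. SLC2A1 was at -0.43 [-0.53, -0.32] and -0.50 [-0.62, -0.38]. PDK1, a kinase that inhibits pyruvate dehydrogenase, was at 8.40, 7.45, 5.26 and 5.03 CPM, or -0.68 and -0.57. The collagen prolyl hydroxylase subunits P4HA1 (-0.45 and -0.34) and P4HA2 (-0.43 and -0.44) and the peptide hormone gene ADM (-0.50 and -0.68) completed the lower targets. CA9, carbonic anhydrase 9, had 49, 27, 24 and 17 UMIs, too few for a call in either neratinib comparison.

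A few targets stood on the other side. NDRG1, a stress-induced gene, was at 19.7 and 19.6 CPM without neratinib and at 31.6 and 29.2 with it, a ratio of 0.68 [0.60, 0.76] and 0.57 [0.49, 0.66]. KDM3A, a histone demethylase, was at 23.9 and 21.6 CPM without neratinib and 31.5 and 30.7 with it, or 0.40 [0.32, 0.48] and 0.50 [0.42, 0.59]. ANKRD37, an ankyrin repeat gene, was at 16.5, 18.5, 23.1 and 21.6 CPM, or 0.49 [0.39, 0.58] and 0.22 [0.13, 0.32]. The mitophagy receptors BNIP3 (0.09 and 0.00) and BNIP3L (0.20 and 0.22) and the mitochondrial gene FAM162A (-0.11 and -0.25) were inside the call limit in both. The HIF targets therefore did not share a direction.

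The mitochondrial share of the cells went with the NDRG1 ratio. In cells with at most 20% mitochondrial UMIs NDRG1 was at 0.71 and 0.64, but in cells above 20% at 0.14 and 0.16, and its call was lost there. VEGFA did not show this, with -1.26 and -1.20 below the ceiling and -1.47 and -1.46 above it. KDM3A was at 0.54 and 0.66 below and 0.33 and 0.61 above. Cells below the ceiling made up 85.4% and 82.5% of the libraries without neratinib and 37.6% and 37.7% of those with it, and the part of the mitochondrial share in these ratios was not tested further. Over the 6 other choices of cells or scaling, 13 of the 17 members lower against DMSO kept that call in all, and HK1, ENO2, LDHA and P4HA2 lost it in at least 1. On top of fulvestrant 10 of 18 kept it, 6 of them HIF targets. HIF1A, PFKP, ADM, ENO2, HK1, LDHA, P4HA1 and P4HA2 lost it there in at least 1 choice. The share of all genes that kept a lower call in every choice was not counted. These counts therefore do not set the members apart from other genes.

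HIF1A transcripts, which encode the regulated alpha subunit, were at 52.4 CPM with DMSO, 52.2 with fulvestrant, 37.9 with neratinib and 38.5 with the combination. Both neratinib libraries were low, at -0.47 [-0.53, -0.40] and -0.44 [-0.51, -0.38], and fulvestrant was at -0.01 [-0.06, 0.05]. The HIF1A call on top of fulvestrant was not kept under every choice of cells and scaling tried. HIF protein was not measured. Around HIF1A, a list of further HIF subunits, hydroxylases, ubiquitin ligase parts and cofactors had 12 measured genes, of which 3 were lower and 2 higher with neratinib against DMSO, and 4 and 2 on top of fulvestrant. These counts were near the 33.3% and 32.4% lower and 13.6% and 13.8% higher of all genes, and single genes of the list are given as a description. CITED2, which competes with HIF for the coactivators CREBBP and EP300, was at 14.8, 17.5, 28.6 and 31.5 CPM, or 0.95 [0.86, 1.05] and 0.84 [0.75, 0.94]. CREBBP was at 0.47 and 0.63. The ligase subunits CUL2 (-0.51 and -0.35) and ELOC (-0.40 and -0.37) were below 0.

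The single call for fulvestrant in that list was EGLN2, the prolyl hydroxylase also known as PHD1, singled out after its values were seen. It was at 1.59 CPM with DMSO and 0.466 with fulvestrant, and at 1.74 with neratinib and 0.527 with the combination. It was low in both fulvestrant libraries, at -1.77 against DMSO and -1.72 against neratinib, while neratinib was at 0.13 and 0.18. The hydroxylase genes thus had 3 patterns: EGLN2 low with fulvestrant, EGLN1 low with neratinib, and EGLN3 low with neratinib and lowest with both drugs. EGLN2 was under 1 CPM in both fulvestrant libraries, so its pattern rests on few counts.

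Other genes of sugar metabolism and of hypoxia were read from lists as well. Of 20 measured genes for transport, other isozymes and the use of pyruvate or lactate, 6 were lower and 3 higher with neratinib against DMSO, and 7 and 1 on top of fulvestrant, near the shares of all genes (33.3% and 13.6%, then 32.4% and 13.8%). TIGAR, a phosphatase that removes fructose 2,6-bisphosphate, had the lowest ratio, at 10.7 and 9.96 CPM without neratinib and 1.93 and 2.06 with it, or -2.47 [-2.72, -2.23] and -2.27 [-2.51, -2.04]. SLC16A3, the lactate exporter MCT4, was at 5.79, 6.06, 2.72 and 2.44 CPM, or -1.09 and -1.31. PFKFB2 was at -0.76 and -0.56. PDK2, a kinase that acts like PDK1, went the other way, at 25.1 and 25.1 CPM without neratinib and 41.7 and 38.3 with it (0.73 and 0.61). Genes that make and that remove fructose 2,6-bisphosphate were therefore both low with neratinib.

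In the pentose phosphate pathway and gluconeogenesis 3 of 11 measured genes were lower against DMSO and 1 on top of fulvestrant, beside 33.3% and 32.4% of all genes. None was higher in either comparison, beside 13.6% and 13.8%. RPE was at -0.41 and -0.30, G6PC3 at -0.34 and -0.32, and RPIA at -0.20 and -0.01. Of 26 measured further hypoxia-induced genes, 10 were lower and 5 higher in each neratinib comparison, near the shares of all genes (33.3% and 13.6%, then 32.4% and 13.8%). Their median was -0.27 and -0.20. MXI1, a MYC antagonist, was at 8.64, 8.29, 19.7 and 20.5 CPM, or 1.19 [1.07, 1.31] and 1.31 [1.18, 1.43]. The clock-linked repressors BHLHE40 (-2.19 and -2.98) and BHLHE41 (-1.43 and -1.67) were low with neratinib. STC2, a secreted glycoprotein gene, was low with either drug, at 16.8 CPM with DMSO, 8.87 with fulvestrant, 8.29 with neratinib and 3.096 with the combination. These further hypoxia genes thus had calls in both directions.

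Summed over genes the 2 classes differed little. The 18 enzymes took 5747 CPM with DMSO, 5651 with fulvestrant, 5582 with neratinib and 5358 with the combination. GAPDH made up 272658 of the 589097 enzyme UMIs with DMSO, and without it the sums were 3087, 2986, 2637 and 2513 CPM, a neratinib ratio of -0.23 and -0.25. The 16 HIF targets summed to 460.3, 458.6, 435.8 and 415.4 CPM, or -0.08 and -0.14. A sum hides the single genes: among the 9 members at 1 to 10 CPM 8 were lower with neratinib against DMSO, beside 34.5% of all genes at that level, and their median was -0.68 against -0.11. Among the 8 members of at least 100 CPM 1 was lower, beside 26% of all genes there.

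Free RNA was read from barcodes with at most 100 UMIs, which held 5.14 to 6.28 UMIs on average. VEGFA was at 24.3, 26.1, 16.2 and 11.2 CPM in that RNA and NDRG1 at 33.5, 32.5, 50.9 and 52.1 CPM, in the order DMSO, fulvestrant, neratinib, both drugs. Levels there followed those in the cells in direction, with neratinib ratios of -0.58 and -1.21 for VEGFA and 0.60 and 0.68 for NDRG1. No cell type without these genes was present to set a background share of cells.

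In single cells, each cell was thinned to 5000 UMIs, which left out 0 cells. VEGFA was then found in 10.5% [9.59, 11.4] of DMSO cells, 9.87% of fulvestrant cells, 4.76% [4.08, 5.52] of neratinib cells and 5.03% of those given both. Before thinning the shares were 34.9%, 32.8%, 18.6% and 17.4%. NDRG1 was found in 9.67% [8.80, 10.6], 9.10%, 15.5% [14.3, 16.7] and 14.4% of thinned cells, and in 26.6%, 27.3%, 48.1% and 46.9% before. EGLN3 was found in 13.7%, 11.9%, 7.39% and 5.01%, and before thinning in 39.8%, 36.6%, 26.0% and 19.4%. The intervals of the thinned shares overlapped between neratinib and the combination for VEGFA and NDRG1. How the shares of cells of all other genes differed between libraries was not counted.

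Enzyme and HIF target sums were also compared from cell to cell. The 18 enzymes summed to a mean of 28.1, 27.4, 27.1 and 26.0 UMIs per thinned cell and the 16 targets to 2.33, 2.32, 2.16 and 2.09. Across cells of a library the Pearson correlation of the sums was 0.56 with DMSO, 0.55 with fulvestrant, 0.47 with neratinib and 0.42 with the combination. The rank correlation (Spearman) was lower, at 0.33, 0.33, 0.27 and 0.24. All cells of a library share its preparation, and a cell's 2 sums share its mitochondrial content. With 10000 UMIs per cell the Pearson correlations were 0.67, 0.67, 0.61 and 0.52. Among pairs of members ENO1 with LDHA (0.35 to 0.38) and PGK1 with LDHA (0.35 to 0.40) were the closest, and LDHA with BNIP3 (0.22 to 0.28) was the closest pair across the classes.

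**Figure D3:**
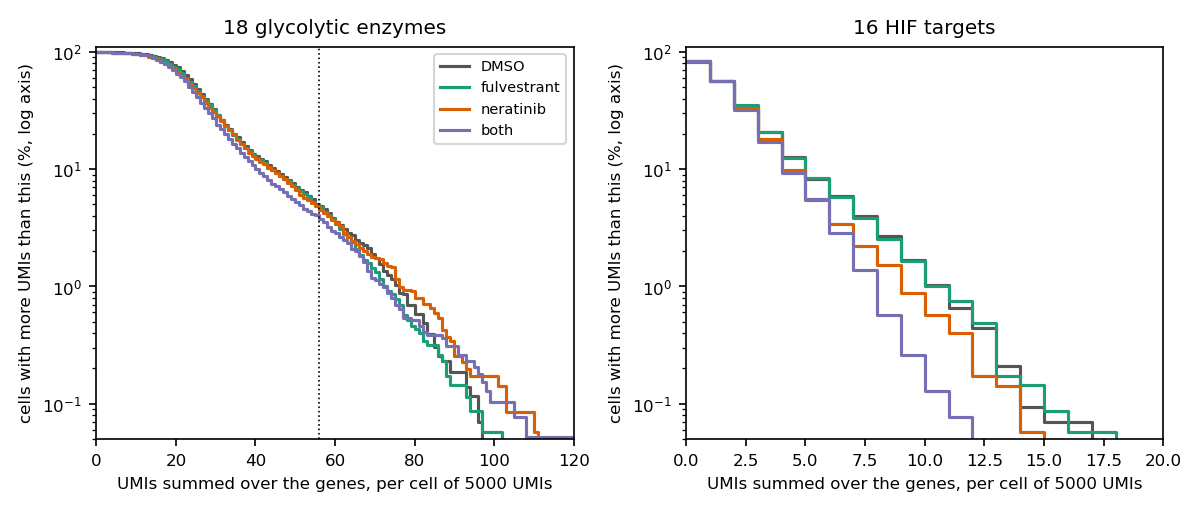
Share of cells, on a log axis, with more UMIs than the value on the horizontal axis for the 18 enzymes and the 16 HIF targets, after thinning to 5000 UMIs per cell; each line is 1 library and the dotted line marks 56 UMIs. The enzyme lines lie close together with a long upper tail. The largest target sums were 12 UMIs with the combination, 16 with neratinib, 17 with DMSO and 21 with fulvestrant. Each was reached by at most 3 cells, and the axes do not show all of them.

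The upper tail of the enzyme sum was then read apart, a split added after the data had been seen. Cells with more than 56 enzyme UMIs of 5000, the 95th percentile of DMSO cells, were called enzyme-high. They were 208 of 4301 DMSO cells (4.84% [4.21, 5.52]), 165 fulvestrant cells (4.73%), 157 neratinib cells (4.48%) and 147 cells with both drugs (3.79% [3.21, 4.44]). With GAPDH left out of the sum, and the limit at 33 UMIs by the same percentile, they were 186, 145, 94 and 79 cells, so that the neratinib libraries then held fewer. They are a range and not a cell type, and between 100 and 163 cells per library lay within 5 UMIs of the limit. Median depth was 21967 to 24265 UMIs in them and 21941 to 23012 in the other cells. Their median mitochondrial share was 16.7%, 17.1%, 20.8% and 21.2%, against 16.2%, 16.7%, 21.1% and 21.1% in the other cells. The median of the target sum was 7, 7, 5 and 5 UMIs in enzyme-high cells and 2 UMIs in the other cells of every library.

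Nearly every HIF target was higher in these cells. All 15 measured targets were higher in enzyme-high than in other cells with DMSO and with fulvestrant, 13 with neratinib and 11 with the combination, beside 4.05%, 3.83%, 5.07% and 4.38% of all genes. HIF1A transcripts were not, with a ratio of 1.02 [0.902, 1.16] in DMSO cells. NDRG1 was 6.34-fold [5.72, 7.03] higher in enzyme-high DMSO cells, and 6.93-fold, 2.08-fold [1.82, 2.37] and 1.83-fold in the other libraries in order. MIR210HG was 6.33-fold, 5.51-fold, 6.14-fold and 6.19-fold higher, and BNIP3 4.21-fold, 4.00-fold, 3.89-fold and 3.74-fold. The contrast between the cell groups was thus smaller with neratinib for NDRG1 and nearly alike for MIR210HG and BNIP3. CA9, which was not measured over all cells, had 21 of its 49 DMSO UMIs in the enzyme-high cells.

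Within enzyme-high cells neratinib went with lower targets and no higher ones. Of the measured targets 10 were lower and 0 higher with neratinib against DMSO, beside 22.4% and 7.11% of all genes in these cells. With both drugs against fulvestrant 9 were lower and 0 higher, beside 19.7% and 6.76%. In the other cells 9 were lower and 3 higher in both comparisons, beside 33.2% and 13.6%, then 32.5% and 13.7%. NDRG1 and KDM3A had opposite calls in the 2 groups of cells, and on top of fulvestrant ANKRD37 as well, where 0.0494% and 0.0577% of all genes were higher in other cells and lower in enzyme-high cells.

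NDRG1 was at 99.6 CPM with DMSO, 106 with fulvestrant, 62.5 with neratinib and 51.5 with the combination in enzyme-high cells. In the other cells it was at 15.7, 15.3, 30.0 and 28.2 CPM. Neratinib libraries were thus low in the first group and high in the second. The ratios were -0.67 [-0.90, -0.45] and -1.04 [-1.30, -0.79] in enzyme-high cells and 0.94 [0.84, 1.03] and 0.88 [0.78, 0.98] in the others. KDM3A was at 56.3, 52.1, 40.7 and 29.5 CPM in enzyme-high cells and 22.3, 20.1, 31.0 and 30.7 in the others. Its ratios were -0.47 [-0.76, -0.18] and -0.82 [-1.17, -0.48] against 0.48 [0.39, 0.56] and 0.61 [0.52, 0.70]. The KDM3A ratio in enzyme-high cells against DMSO was inside the call limit with median-of-ratios scaling (-0.31) and with GAPDH left out of the sum (-0.30 [-0.64, 0.04]), and its interval reached 0.01 with the limit at the 98th percentile.

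**Figure D4:**
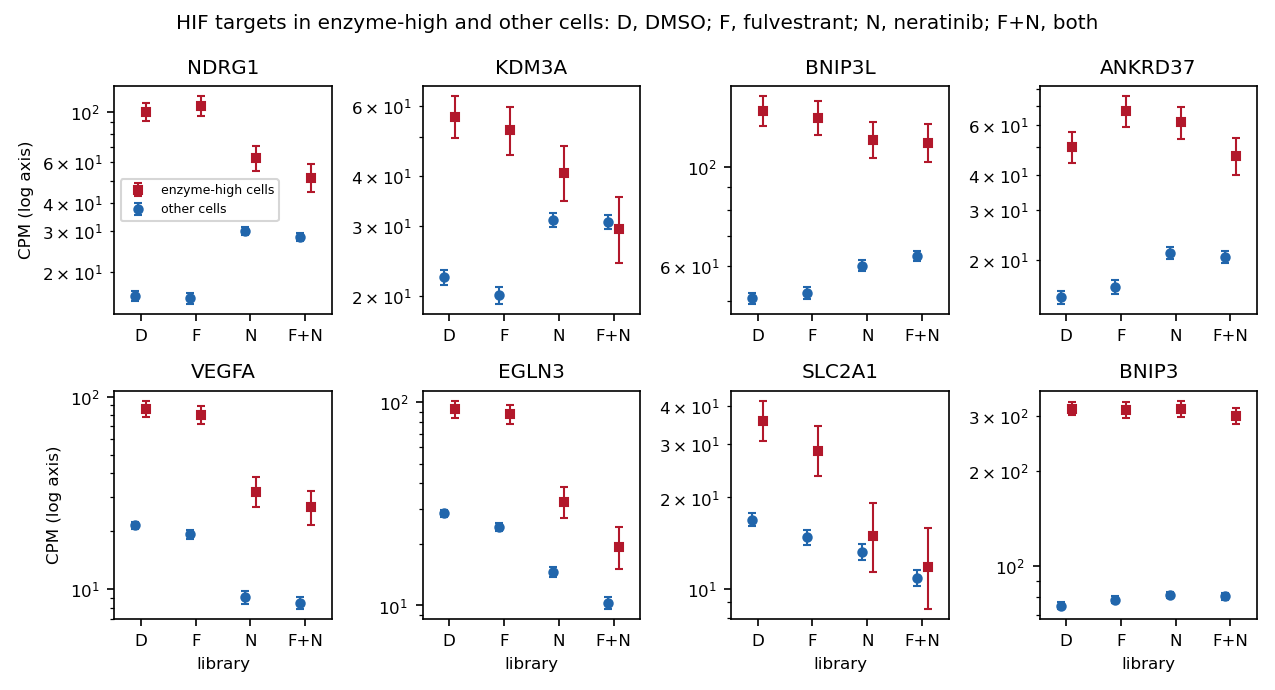
CPM on a log axis of 8 HIF targets in enzyme-high cells (red squares) and other cells (blue circles) of the DMSO (D), fulvestrant (F), neratinib (N) and combined (F+N) libraries, with 95% Poisson counting intervals. NDRG1 and KDM3A lie lower with neratinib in enzyme-high cells and higher in other cells, VEGFA and EGLN3 lie lower in both, and BNIP3 stays near 300.1 to 316 CPM and 75.05 to 81.1 CPM.

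Other targets had ratios of the same sign in both groups of cells, or a ratio near 0. VEGFA was at 86.1, 80.5, 32.1 and 26.6 CPM in enzyme-high cells and 21.4, 19.2, 9.05 and 8.505 in the others, with ratios of -1.42 and -1.60 against -1.24 and -1.18. SLC2A1 was at 35.9, 28.6, 14.9 and 11.8 CPM and 16.9, 14.8, 13.2 and 10.8 CPM. Its neratinib ratio was -1.27 [-1.72, -0.83] and -1.28 [-1.81, -0.76] in enzyme-high cells, against -0.36 [-0.47, -0.25] and -0.45 [-0.57, -0.32] in the others, so that with neratinib the 2 groups of cells no longer differed beyond counting error (1.13-fold [0.856, 1.47]). BNIP3 was at 316, 313, 316 and 300.1 CPM in enzyme-high cells. These groups of cells were formed within single libraries, so the differences between them have no replicate check either.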

How the data were processed

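The files held 1 unfiltered 10x Genomics matrix of UMI counts, 33538 genes by 6794880 barcodes in each of 4 libraries, which the authors made with Cell Ranger 3.1.0 on hg19 per the submitters' processing notes and deposited without normalization. Libraries came from a 3' kit, so counts are not scaled by gene length. Barcodes end in a library number, which was joined to the number opening each sample title, and no other label states that link, and 0 columns of other samples were left unused. Whether read depth was evened on merging is not stated in the labels. There were 48 genes that share a symbol, kept apart by identifier.

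Cells had at least 5000 UMIs and 500 genes, with no mitochondrial ceiling. Doublets were not called, and stayed in. Counts were summed over the cells of a library and divided by their total to give CPM. The interval of a ratio is the exact conditional binomial of 2 Poisson counts, and that of a share of cells is exact Clopper-Pearson, both at 95% and for counting error only. No test was made, since each group was 1 library. Values in every library are given for GAPDH, LDHA, SLC2A1, VEGFA, HIF1A and members of at least 1.5-fold in the same direction in both comparisons of a drug, and up to 4 genes of each further list by absolute neratinib ratio. Some genes that this rule names or that the marker lists hold are counted in their lists but not reported here by name. Members and lists were chosen with earlier results of these data known. Alternatives were a 20% mitochondrial ceiling, cells above it alone, 10000 UMIs per cell, 2 other scalings, equal weight per cell, other limits on CPM and on the fold, and thinning to 10000 UMIs. Promoter windows are RefSeq's (GRCh38.p14), whose coordinates were not joined to the counts. The ratio code was checked on simulated counts. Python 3.11.15, numpy 2.4.6, scipy 1.17.1, pandas 2.3.3 and matplotlib 3.10.9 were used.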

Additional observations from a re-analysis of the deposited data

Results flagged for a closer look

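The fulvestrant ratio of 3 HIF targets had opposite signs without and with neratinib, each with counting intervals off 0 on both sides: 0.0469 and -0.0486 for BNIP3, 0.1659 and -0.0984 for ANKRD37, and 0.0854 and -0.0615 for FAM162A, all inside the call limit. The difference was not tested, since each group was 1 library.

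The neratinib ratio of 3 HIF targets had opposite signs in enzyme-high and other cells. NDRG1 was at -0.67 in enzyme-high and 0.94 in other cells against DMSO, and at -1.04 and 0.88 on top of fulvestrant. KDM3A was at -0.47 and 0.48 against DMSO, and at -0.82 and 0.61 on top of fulvestrant. ANKRD37 was at -0.52 and 0.35 on top of fulvestrant, while against DMSO it was at 0.29 and 0.52, both above 0. These differences were not tested either, and both groups of cells come from the same libraries.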

How the results depend on the processing

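No paired analysis was possible because each group had 1 library, and for the same reason no replicate could be left out. A count of members called has no direction, so an alternative could only raise or lower it. With 1.5-fold as the limit, members lower with neratinib numbered 9 against DMSO (15.1% of all genes) and 8 on top of fulvestrant (14.6%). Members higher were 1 and 0 (7.03% and 7.26%). With both drugs against DMSO 19 were lower and 3 higher at the reported limit (33.3% and 14.9% of all genes). At 1.5-fold these were 11 and 0 (15.7% and 7.94%). Members lower with both drugs against neratinib were 0 at 1.5-fold, beside 0.634% of all genes. With cells of at most 20% mitochondrial UMIs, or a minimum mean CPM of 5, EGLN3 alone kept that call at the reported limit. In cells above 20% mitochondrial UMIs, 2 members were lower with fulvestrant against DMSO (2.76% of all genes). In the same cells the members higher with both drugs against fulvestrant, and against DMSO, were fewer than reported, which was not set beside all genes. There ADM had a ratio of 0.07 on top of fulvestrant, against -0.68 in all cells. The cause was not tested. The other 88 counts of members called under an alternative stayed within 1.5 times the reported ones, those without enzyme-high cells included. Of the values for single genes, class medians, and shares and correlations over cells, 355 moved by less than a tolerance and 143 by more. Among the 143 were the shares after thinning to 10000 UMIs. For single genes and shares the tolerance was counting error. For class medians it was the median half-width of single-gene intervals, and for correlations the standard deviation over the 4 libraries. Without GAPDH in the sum, enzyme-high cells numbered 94 and not 157 with neratinib, and 79 and not 147 with both drugs. For NDRG1, KDM3A and VEGFA the signs in enzyme-high and in other cells were the same with limits at the 90th and 98th percentile, without GAPDH, below the ceiling and with median-of-ratios scaling. Depth limits ADM, PFKFB3, PFKFB4, ENO2 and CA9 most, and EGLN2 outside the members. Counting intervals hold no variation between cultures.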
